A study of Mus musculus with 4 samples.

Results

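The genes described here are the classical major histocompatibility complex (MHC) class I and class II genes and their core partners, found by symbol among the 31053 genes counted in single brain cells after transient middle cerebral artery occlusion (tMCAO), a model of ischemic stroke. The 9 members, each with exactly 1 row in every library, were H2-K1, H2-D1, B2m and Tap1 for class I and H2-Aa, H2-Ab1, H2-Eb1, Cd74 and Ciita for class II. Droplet single-cell RNA-seq had been run on the ipsilateral brain hemisphere of male C57/BL6 mice (strain from the methods, 8 weeks old by the labels), after sham surgery or on day 1, day 3 or day 7 after tMCAO. Each group had 1 library, so 4 libraries were compared in all. The sham mice had the operation without the occlusion, and the design text places that group at day 7, whereas the sampling scheme of the study shows a sample on the day of surgery. The ratios to sham below cannot be tied to a certain day of that group. How many mice went into a library is not stated, and no group differences beyond surgery and time are given by the labels. With 1 library per group no test between groups was possible, and every interval below is an exact 95% interval that covers counting error only.

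MHC class I molecules present peptides from inside the cell to CD8 T cells. A heavy chain, encoded by H2-K1 or H2-D1, is held by the light chain B2m and loaded with peptide that the transporter Tap1 helps bring into the endoplasmic reticulum. Class II molecules present engulfed proteins to CD4 T cells and pair the alpha chain H2-Aa with the beta chain H2-Ab1, with H2-Eb1 as the beta chain of the second isotype, while the invariant chain Cd74 guards the peptide groove and Ciita is the transactivator of class II transcription. Most nucleated cells can carry class I, class II is a mark of B cells, dendritic cells and activated macrophages, and the healthy brain is known for low levels of both.

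In GENCODE vM21 (GRCm38), which holds a gene with the same identifier for all 9 members, 6 lie on chromosome 17 within 1.27 Mb. H2-K1 (ENSMUSG00000061232) is at chr17:33996017-34000347 on the minus strand, Tap1 at chr17:34187553-34197225, H2-Ab1 at chr17:34257689-34269419, H2-Aa at chr17:34282744-34287823 on the minus strand, H2-Eb1 at chr17:34305867-34316674 and H2-D1 (ENSMUSG00000073411) at chr17:35262730-35267499. B2m is at chr2:122147686-122153083 and Ciita at chr16:10480059-10528418. All are protein-coding, and the values are sums over the whole gene. H2-K1 and H2-D1 are related genes of similar sequence, and how the counting assigned reads between them was not tested and is uncertain. Tap1, B2m, H2-Eb1 and Ciita overlap a gene on the opposite strand (Psmb9, Patl2, Gm20513 and Dexi).

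The members share regulatory letters upstream of their start sites, which are shown here because the class I genes, and separately the class II chains, had similar patterns over classes and libraries. RefSeq (GRCm38.p6) promoters were at hand for 6 members, and the 250 bases before the start site were searched on both strands. Letters of the X2 box (TGACG or TGATG) followed 10 to 40 bases on, on the same strand, by letters of the Y box (ATTGG) stood in 5 of the 6 (H2-K1, H2-D1, B2m, H2-Aa and H2-Eb1) and in 2.17% of the 32851 promoters in the table. The kappaB letters GGGNNTTCC were in H2-K1, H2-D1 and H2-Aa and in 4.98% of all promoters. Letters of an interferon-stimulated response element were in H2-K1 and H2-D1 as GAANNGAAA (6.31% of all promoters) and in B2m as GAAANNGAA (7.13% of all promoters), 2 spellings that can overlap. Both the kappaB letters and GAANNGAAA were in H2-K1 and H2-D1 and in 0.332% of all promoters. Tap1 held X2 letters and Y box letters, but not at this spacing, and neither of the other motifs. A match is a description of the letters and not a shown binding site. Of the printed windows H2-K1 and B2m stand for class I and H2-Aa and H2-Eb1 for class II. Capitals mark the letters named above, in the direction of transcription (chr17:34000348-34000597 minus strand, chr2:122147437-122147686 plus, chr17:34287824-34288073 minus and chr17:34305617-34305866 plus).
H2-K1: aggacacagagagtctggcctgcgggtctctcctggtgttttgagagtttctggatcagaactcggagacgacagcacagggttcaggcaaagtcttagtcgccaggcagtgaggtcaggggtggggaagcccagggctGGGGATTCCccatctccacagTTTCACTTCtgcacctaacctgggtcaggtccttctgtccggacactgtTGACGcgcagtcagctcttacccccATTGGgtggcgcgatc
B2m: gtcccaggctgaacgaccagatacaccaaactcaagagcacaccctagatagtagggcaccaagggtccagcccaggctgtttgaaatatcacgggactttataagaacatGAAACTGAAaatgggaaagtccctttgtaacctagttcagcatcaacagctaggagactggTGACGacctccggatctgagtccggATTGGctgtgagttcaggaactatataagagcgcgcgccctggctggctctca
H2-Aa: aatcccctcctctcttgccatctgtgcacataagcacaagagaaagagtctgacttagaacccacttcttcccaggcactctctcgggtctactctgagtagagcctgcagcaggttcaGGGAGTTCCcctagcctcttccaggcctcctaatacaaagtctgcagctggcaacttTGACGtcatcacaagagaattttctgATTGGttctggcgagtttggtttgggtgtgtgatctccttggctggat
H2-Eb1: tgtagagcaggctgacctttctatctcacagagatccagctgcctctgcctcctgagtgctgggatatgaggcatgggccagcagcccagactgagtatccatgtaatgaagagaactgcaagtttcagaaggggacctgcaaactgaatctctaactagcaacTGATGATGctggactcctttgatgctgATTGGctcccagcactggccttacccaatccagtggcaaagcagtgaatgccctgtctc

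The libraries held 11744 to 17922 barcodes and 69392755 to 104023002 UMIs, of which 7562 to 14044 cells were kept, with a median of 2508 to 3732 UMIs each. Between 12 and 50 kept barcodes were shared by any pair of libraries. Cells were sorted into 17 classes by markers that hold no member, and each class is "-like" in that sense: endothelial means endothelial-like by the gate. Endothelial cells detected 86.6% to 89.7% of their 8 markers on average, microglia 68.8% to 77% of 8, and oligodendrocytes 95.4% to 98.9% of 6. There were 4809, 6730, 5632 and 9106 endothelial cells in sham and on days 1, 3 and 7, 119, 441, 348 and 249 microglia, and 773, 2196, 828 and 1191 oligodendrocytes. Macrophages, monocytes and dendritic cells were pooled as phagocytes (55, 109, 50 and 63 cells) because the macrophage gate alone held 45, 79, 33 and 30 cells. The makeup of this pool differed, with 10, 26, 14 and 26 monocytes and 0, 4, 3 and 7 dendritic cells. Levels are UMIs per 1000000 UMIs of the class (CPM), and a class was given a CPM only in libraries where it held at least 50 cells. The day 1 endothelial cells with Plvap, described further on, were given a CPM with 47 cells.

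Class I in endothelial cells was lowest on day 1 and highest on day 3. Endothelial cells form the blood vessel lining and gave 71.1% to 87.4% of all class I UMIs in a library. H2-K1 stood at 1475 CPM in sham, 855 on day 1, 2212 on day 3 and 1529 on day 7. H2-D1 stood at 2518, 1436, 2810 and 2019 CPM in the same order. Both heavy chains shared the day 1 low and the day 3 high, but on day 7 H2-K1 was near its sham level and H2-D1 below its own. The light chain B2m was at 1403, 863, 1747 and 1413 CPM. The transporter Tap1 moved over the widest range, at 101 CPM in sham, 34.9 on day 1, 152 on day 3 and 66.4 on day 7.

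On day 1 the ratios to sham were 0.580 (95% interval 0.568 to 0.592) for H2-K1, 0.570 (0.561 to 0.580) for H2-D1, 0.615 (0.603 to 0.628) for B2m and 0.346 (0.314 to 0.380) for Tap1. All 4 class I members were thus at least 1.5-fold lower with 10 CPM added, the limit used throughout, and 5.85% of all 6877 endothelial genes tested were. On day 3 the ratio was 1.499 (1.475 to 1.524) for H2-K1 and 1.51 (1.415 to 1.605) for Tap1, against 1.12 (1.10 to 1.13) for H2-D1 and 1.25 (1.22 to 1.27) for B2m. None of the 4 passed the limit with 10 CPM added that day, where 4.06% of all genes were past it upward and 3.54% downward, although H2-K1 and Tap1 lay just under it. On day 7 none of the 4 was past the limit in the lower direction, where 2.02% of all genes were, and Tap1 came closest at 0.657 (0.6125 to 0.705). From day 1 to day 3 the level of H2-K1 differed by 2.59-fold (2.54 to 2.64), that of H2-D1 by 1.96-fold (1.93 to 1.99) and that of Tap1 by 4.36-fold (3.98 to 4.78).

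**Figure D1:**
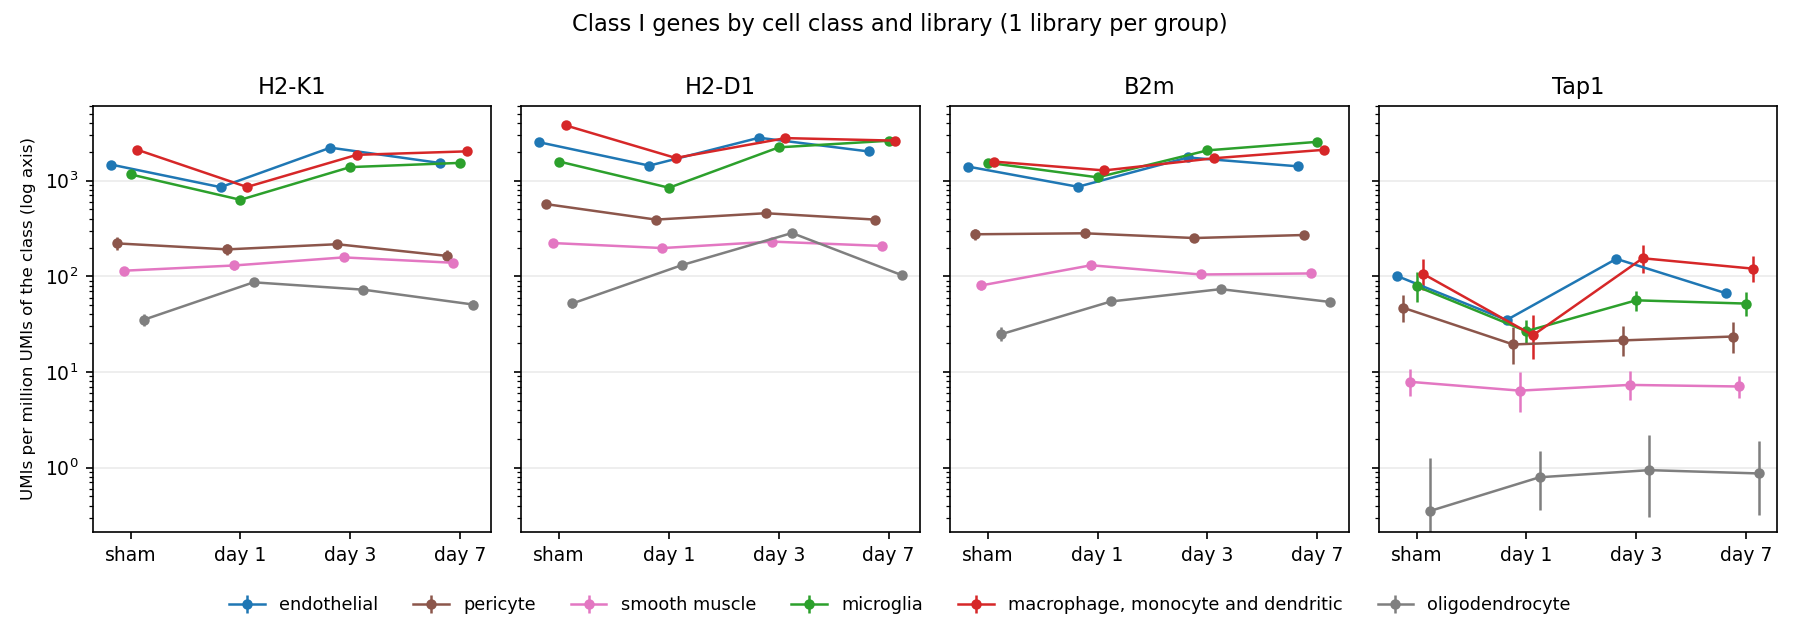
Level of each class I gene (UMIs per 1000000 UMIs of the class, log axis) in 6 cell classes and 4 libraries, points with exact 95% Poisson intervals, 1 library per group. Endothelial cells, microglia and phagocytes are lowest on day 1 for H2-K1, H2-D1, B2m and Tap1, while oligodendrocytes are lowest in sham.

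The same order of libraries was seen in each vessel zone. Over H2-K1, H2-D1 and B2m together (the class I chains), arterial cells held 7385, 3929, 9161 and 6363 CPM, capillary cells 4833, 2920, 5880 and 4367, and venous cells 6786, 3289, 6950 and 6159. For this sum day 1 was lowest and day 3 highest in all 3 zones, and arterial cells stood highest in all 4 libraries. In venous cells the intervals of day 3 (6857 to 7044) and sham (6599 to 6977) overlapped. Singly, venous H2-D1 (2708 CPM in sham, 2597 on day 3) and B2m (1896 and 1768) were highest in sham. Venous H2-K1 (2182 and 2585) was highest on day 3. After each cell was thinned to 1000 UMIs, 97.3%, 91.7%, 99% and 97.1% of endothelial cells held a class I chain UMI. A share this near its ceiling does not show how the day 1 difference was spread over cells. Unthinned, the shares were 97.3%, 93.9%, 98.8% and 97.6%, and the median depth of endothelial cells was 2857, 1846, 2200 and 1974 UMIs.

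The other genes of the pathway in endothelial cells were taken from lists of 58 genes, of which 56 had a row and 38 were above 20 CPM on day 1 or in sham. On day 1, 17 of the 38 were past the limit downward and 1 upward, against 5.85% and 4.48% of all endothelial genes. Among genes of class I peptide supply and loading, 7 of 12 were lower, led by the immunoproteasome subunits Psmb8 (434 CPM in sham, 190 on day 1), Psmb9 (213 and 103) and Psmb10 (283 and 150), and by the tapasin relative Tapbpl (50.3 and 24.6). Of the non-classical and Qa class I genes 6 of 7 were lower, with H2-Q4 at 338 and 113 CPM, H2-T24 at 42.9 and 10.9, H2-Q6 at 46.1 and 16.2 and H2-Q7 at 84.3 and 40.3. This family is also made of related genes of similar sequence, for which the assignment of reads was not tested. The class I transactivator Nlrc5 stood at 20.5 and 4.51 CPM. Nlrc5, H2-T24, H2-Q6 and Cd274 were under 20 CPM on day 1 and so were tested only through sham, where they were high, which bears on these counts. Of the interferon ligands and receptors 0 of 4 were past the limit, and the receptor chain Ifnar2 (298 and 196 CPM) lay just short of it.

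On day 3 6 of 38 such genes were past the limit upward and 2 downward, against 4.06% and 3.54% of all endothelial genes, so the downward count was near its background. H2-Q7 (248 CPM) and H2-Q6 (112 CPM) were the highest over sham among class I relatives, at 2.94-fold and 2.43-fold. Psmb9 stood at 351 CPM, Irf1, an interferon-induced transcription factor, at 234 CPM against 136 in sham, and Cd274, the checkpoint ligand PD-L1, at 80.2 against 34.2. On day 7 7 of 38 were lower and 0 higher, against 2.02% and 6.18% of all genes, and Psmb8 (226 CPM) and Psmb10 (151 CPM) were among them. The median log2 ratio over all endothelial genes tested was -0.07, 0.00 and 0.08 on the 3 days.

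Microglia, the resident macrophages of the brain, had the day 1 low as well, but their class I level was highest on day 7. H2-K1 was at 1163, 631, 1386 and 1534 CPM in sham and on days 1, 3 and 7. H2-D1 was at 1584, 843, 2230 and 2613 CPM. B2m was at 1540, 1083, 2074 and 2546 CPM. In all 3 genes day 1 was the lowest library and day 7 the highest. Markers of other myeloid cells were detected most on day 1 in the same cells, at 0.735%, 4.65%, 1.11% and 1.56% for the macrophage list and 2.8%, 8.43%, 3.02% and 3.48% for the monocyte list, while their own list was at 77%, 68.8%, 72.3% and 72%. The part of these in the class I levels was not tested. On day 1 the ratio to sham was 0.542 (0.488 to 0.604) for H2-K1, 0.532 (0.486 to 0.584) for H2-D1 and 0.703 (0.643 to 0.770) for B2m. On day 7 it was 1.32 (1.19 to 1.47), 1.65 (1.51 to 1.80) and 1.65 (1.51 to 1.81). Tap1 had few UMIs (32, 53, 69 and 48), and stood at 78.7, 26.7, 56.1 and 51.9 CPM, with no library above sham. Counts of microglial members past the limit are given with class II below, because 24.6% of all microglial genes were past it downward on day 1.

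Class I in microglia was also compared by injury state. Among microglia with 2 or more of the injury genes Cst7, Lpl, Spp1, Itgax, Gpnmb and Igf1, the class I chains stood at 2581 CPM on day 1 (100 cells) and 6320 on day 3 (65 cells). Among microglia with 0 injury genes they stood at 4335 in sham (116 cells), 2588 on day 1 (212 cells), 4958 on day 3 (212 cells) and 5369 on day 7 (169 cells). Sham held 0 microglia with 2 or more injury genes and day 7 only 39, so such cells could be compared between days 1 and 3 alone, while those with 0 injury genes were lowest on day 1 of the 4 libraries. The former cells were deeper, at a median of 7354 against 2010 UMIs on day 1 and 6007 against 1630 on day 3.

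Phagocytes had the day 1 low without a later level above sham in the heavy chains. H2-K1 was at 2105, 859, 1862 and 2024 CPM. H2-D1 was at 3778, 1728, 2785 and 2621 CPM, below sham in all 3 tMCAO libraries. B2m was at 1581, 1279, 1716 and 2101 CPM. The ratios on day 1 were 0.408 (0.363 to 0.458), 0.457 (0.420 to 0.498) and 0.809 (0.720 to 0.909). Tap1 rested on 30, 16, 36 and 41 UMIs. In T and NK cells, which were too few for a CPM in 3 libraries, the mean was 18.2, 6.07, 16 and 16.2 H2-K1 UMIs per cell in 23, 27, 42 and 102 cells, with day 1 lowest again. Their median depth was 4810, 2458, 4244 and 4096 UMIs, also lowest on day 1.

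Oligodendrocytes, which make myelin, had low class I levels and the opposite order on day 1. H2-K1 was at 35.2, 86.6, 72.5 and 50.7 CPM in sham and on days 1, 3 and 7. H2-D1 was at 52 CPM in sham, 131 on day 1, 284 on day 3 and 103 on day 7. B2m was at 24.8, 54.6, 73.5 and 53.9 CPM. All 3 genes were lowest in sham, and H2-D1 stood out on day 3, at 5.45-fold sham (4.81 to 6.20) against 2.06-fold (1.73 to 2.46) for H2-K1 and 2.96-fold (2.44 to 3.62) for B2m. On day 1 the ratios were 2.46 (2.11 to 2.88), 2.52 (2.23 to 2.87) and 2.20 (1.83 to 2.66) for H2-K1, H2-D1 and B2m. All 3 members above 20 CPM were past the limit upward on day 1, where 5.02% of 5699 genes were, and all 3 on day 3, where 1.8% of 5717 genes were. On day 7, where 11.3% of genes were past it, 3 of 4 were, H2-D1 (1.98-fold, 1.72 to 2.27) and B2m among them, with Cd74 as the third, which passed the filter only through day 7 and whose UMIs lay mainly in 2 cells described further on. The 5 oligodendrocytes with most H2-D1 UMIs held 14.5% of these on day 3 and 15.2% in sham, and the single highest cell held 5.05% on day 3.

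**Figure D2:**
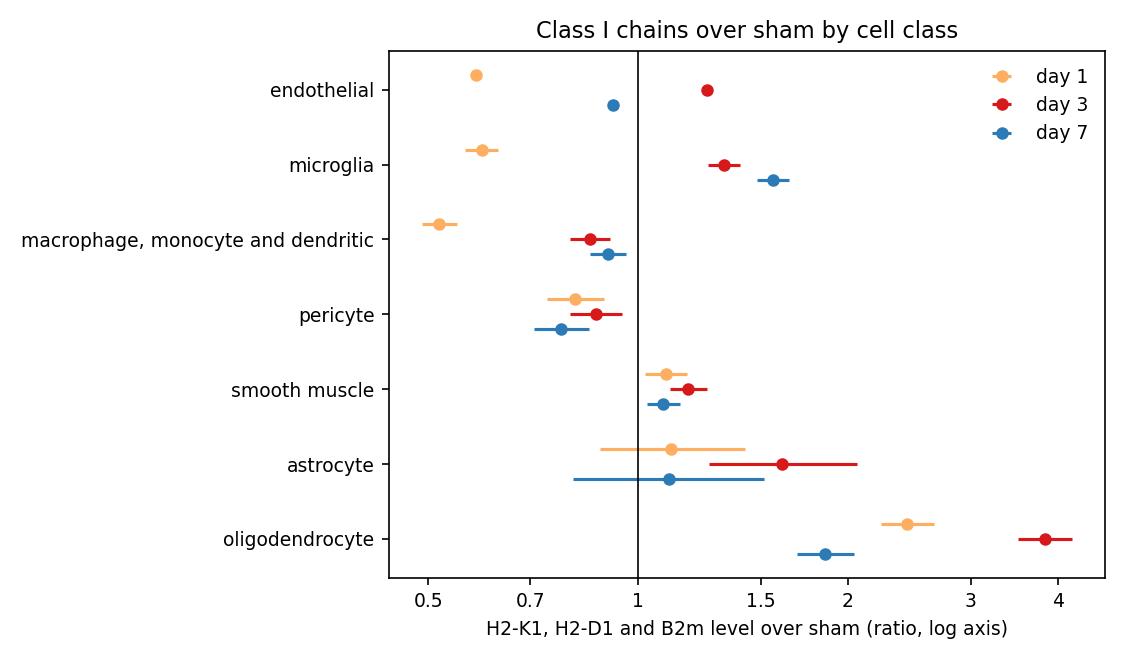
Ratio of the summed class I chain level (H2-K1, H2-D1 and B2m) to sham on days 1, 3 and 7 (log axis) in 7 cell classes, points with exact conditional 95% intervals. Endothelial cells, microglia and phagocytes lie left of 1 on day 1 and oligodendrocytes right of 1 on all 3 days.

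The share of H2-K1 among the heavy chain UMIs of H2-K1 and H2-D1 was not the same in all classes. In oligodendrocytes it was 40.3% in sham, 39.7% on day 1, 20.4% (18.6% to 22.2%) on day 3 and 33% on day 7. In endothelial cells it was 36.9%, 37.3%, 44% and 43.1%, with intervals of at most 37.8% before day 3 and at least 42.8% from day 3 on. T and NK cells were at 47.7%, 45.6%, 48.4% and 53.1% and neutrophils at 21.2%, 25.2%, 18.7% and 28.6%. The day 3 share in oligodendrocytes was thus as low as in neutrophils, and the share in endothelial cells differed in the opposite direction. After thinning, 10.4%, 22.4%, 24% and 15.9% of oligodendrocytes held a class I chain UMI (unthinned 48.3%, 61.5%, 64.3% and 52.2%), at median depths of 7902, 4852, 6680 and 6305 UMIs. Neurons, another class with few class I UMIs, stood at 88.7, 144, 141 and 78.6 CPM. Microglial markers in oligodendrocytes were also lowest in sham and highest on day 3, at 1.6%, 2.11%, 3.06% and 2.13% of the list per cell, and Ptprc was in 0%, 0.546%, 0.362% and 0.42% of cells. The part of these and of free RNA in the low levels was not tested.

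In pericytes and smooth muscle cells, the mural cells around vessels, the class I chains were nearer to their sham level on day 1 than in endothelial cells. In pericytes the class I chains were at 1065 CPM in sham and at 0.812 (0.740 to 0.892), 0.869 (0.797 to 0.947) and 0.776 (0.709 to 0.849) of it on days 1, 3 and 7, whereas pericyte Tap1 (38, 21, 32 and 31 UMIs) was at 0.414 (0.231 to 0.723) of sham on day 1. In smooth muscle cells they were at 418 CPM in sham and at 1.10 (1.02 to 1.18), 1.18 (1.11 to 1.25) and 1.09 (1.03 to 1.15) of it. Astrocytes were at 419 CPM in sham and at 1.12 (0.880 to 1.42), 1.61 (1.26 to 2.06) and 1.11 (0.805 to 1.52) of it. Of the astrocyte intervals only that of day 3 excluded 1. Microglial markers in astrocytes were also highest on day 3, at 1.44%, 3.44%, 4.89% and 2.55% of the list per cell in sham and on days 1, 3 and 7. Their part in the astrocyte levels was not tested.

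Class II UMIs were spread unevenly over the classes. Summed over kept cells, sham and days 1, 3 and 7 held 4678, 5692, 8559 and 13472 UMIs of H2-Aa, H2-Ab1, H2-Eb1 and Cd74 (the class II chains). Monocytes, 10 to 26 cells, held 42.7%, 29.1%, 20.3% and 33.1% of these UMIs. Dendritic cells held 0%, 17.9%, 22.8% and 22.5%, and B cells 25.8%, 8.54%, 11.6% and 12.2%. Endothelial cells, although by far the most numerous, held 4.3%, 12.4%, 19% and 3.87%. Microglia held 9.34%, 9.47%, 9.07% and 4.1%, macrophages 8.51%, 8.03%, 7.16% and 5.89%, and cells that passed no gate 6.63%, 2.86%, 7.9% and 13.7%. T and NK cells held 0, 0, 5 and 2 class II UMIs.

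In phagocytes the class II genes were lowest on day 1 and highest on day 7. The alpha chain H2-Aa was at 980, 679, 2506 and 4213 CPM in sham and on days 1, 3 and 7. The beta chains were at 1097, 720, 2974 and 4777 CPM for H2-Ab1 and at 1121, 928, 3042 and 4789 CPM for H2-Eb1. The invariant chain Cd74 (chr18:60803848-60812652, overlapped by Mir5107 on the same strand) was at 5274, 2410, 9925 and 10576 CPM. All 4 had the same order of libraries. On day 7 the ratio to sham was 4.30 (3.78 to 4.91) for H2-Aa, 4.36 (3.86 to 4.94) for H2-Ab1, 4.27 (3.78 to 4.83) for H2-Eb1 and 2.01 (1.89 to 2.13) for Cd74. The transactivator Ciita rested on 5, 2, 12 and 19 UMIs. H2-Aa, H2-Ab1, H2-Eb1 and Cd74 were past the limit upward on day 3 (18.3% of all 6137 genes tested were) and on day 7 (22.8% of 6326). Ciita was also past it on both days, but was under the 20 CPM filter in sham and entered only through the days on which it was high. On day 1 5 of 8 were past it downward (27.5% of 5831 genes), namely H2-K1, H2-D1, Tap1, H2-Ab1 and Cd74.

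These phagocyte levels were set by a minority of cells. In the macrophage gate 3, 2, 8 and 2 cells held 10 or more class II UMIs, which was 92%, 90.8%, 95.6% and 97.5% of the UMIs of that gate. In the monocyte gate 6 of 10, 5 of 26, 9 of 14 and 12 of 26 cells did, and all 4, 3 and 7 dendritic cells of days 1, 3 and 7. The highest cell devoted 9.84% of its UMIs to class II in the sham monocytes, 10.8% on day 1, 8.69% on day 3 and 7.86% on day 7, so single cells reached a like level in every library. The share of monocytes with at least 1% class II UMIs was 3 of 10, 4 of 26, 6 of 14 and 11 of 26. After thinning to 1000 UMIs, 27.7% (15.6% to 42.6%), 18.8% (11.7% to 27.8%), 55.3% (40.1% to 69.8%) and 43.1% (30.2% to 56.8%) of phagocytes held a class II UMI. Unthinned shares were 32.7%, 33.9%, 70% and 49.2%. Oligodendrocytes, as a class that should lack class II, were at 0.133%, 0.0914%, 0.121% and 0.354% after thinning. In sham 1 cell held 1213 of the 2395 phagocyte class II UMIs (50.6%). Without the cell with most class II UMIs in each library the log2 ratios of the class II chains to sham were -0.15, 1.78 and 2.33 on days 1, 3 and 7, against -0.84, 1.12 and 1.52 with all cells, so the day 1 low was mostly gone without these cells. Without the 5% of cells with the highest doublet scores the day 3 value was 0.27, which is under the 1.5-fold limit. The mix of macrophages, monocytes and dendritic cells moved with the group, and its part in these levels was not tested.

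**Figure D3:**
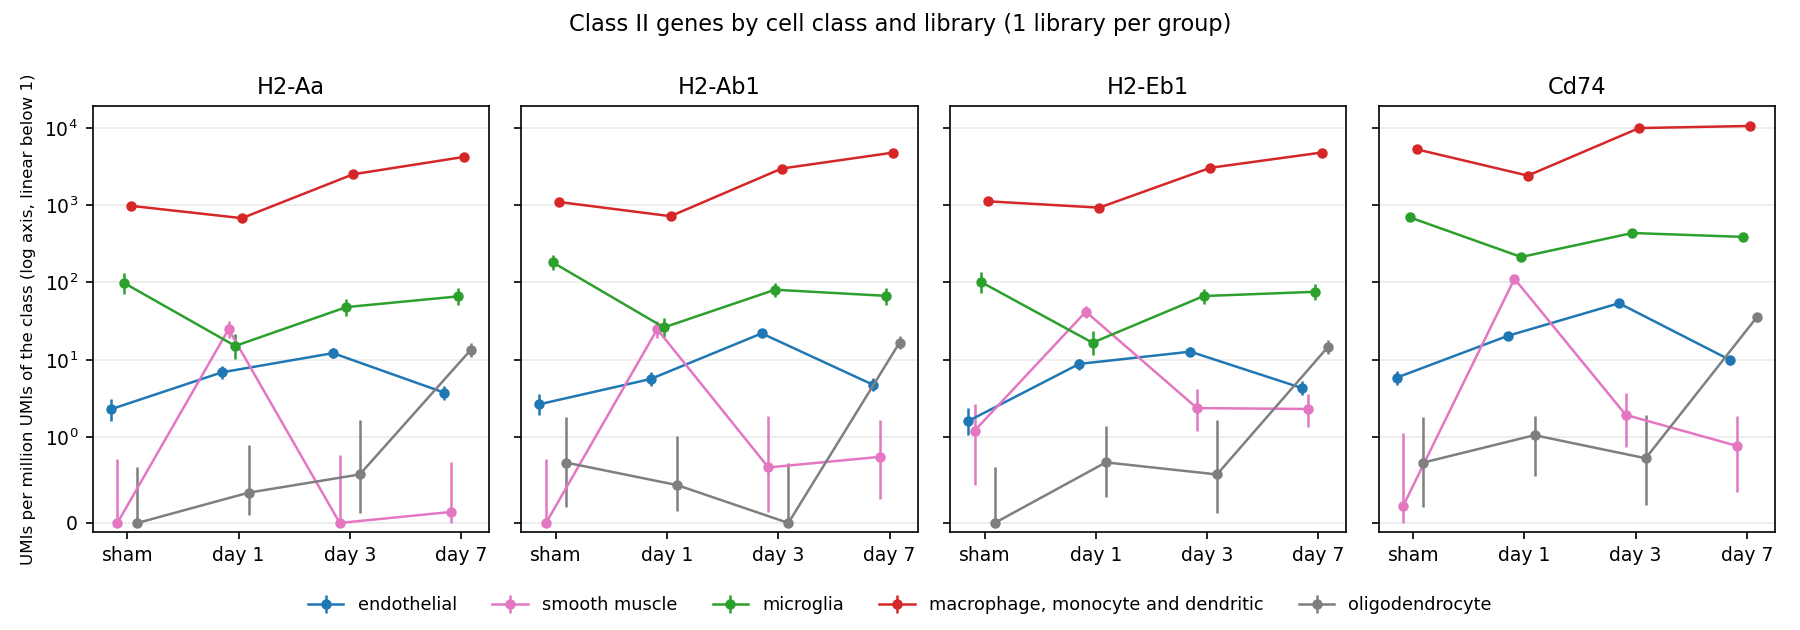
Level of each class II gene (UMIs per 1000000 UMIs of the class, log axis that is linear below 1) in 5 cell classes and 4 libraries, points with exact 95% Poisson intervals, 1 library per group. Phagocytes are highest throughout, and the smooth muscle peak on day 1 and the oligodendrocyte peak on day 7 rest on 1 and 2 cells. Most endothelial class II UMIs of day 1 lie in 4 cells.

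B cells, which carry class II at rest, had it in all libraries. The 13, 9, 12 and 22 B cells held 1206, 486, 993 and 1650 class II UMIs, and the median cell devoted 3.26%, 3.41%, 2.89% and 2.9% of its UMIs to them. The 4 medians lay close together, with no day apart from the others. Ciita had 3, 1, 2 and 7 UMIs there.

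**Figure D4:**
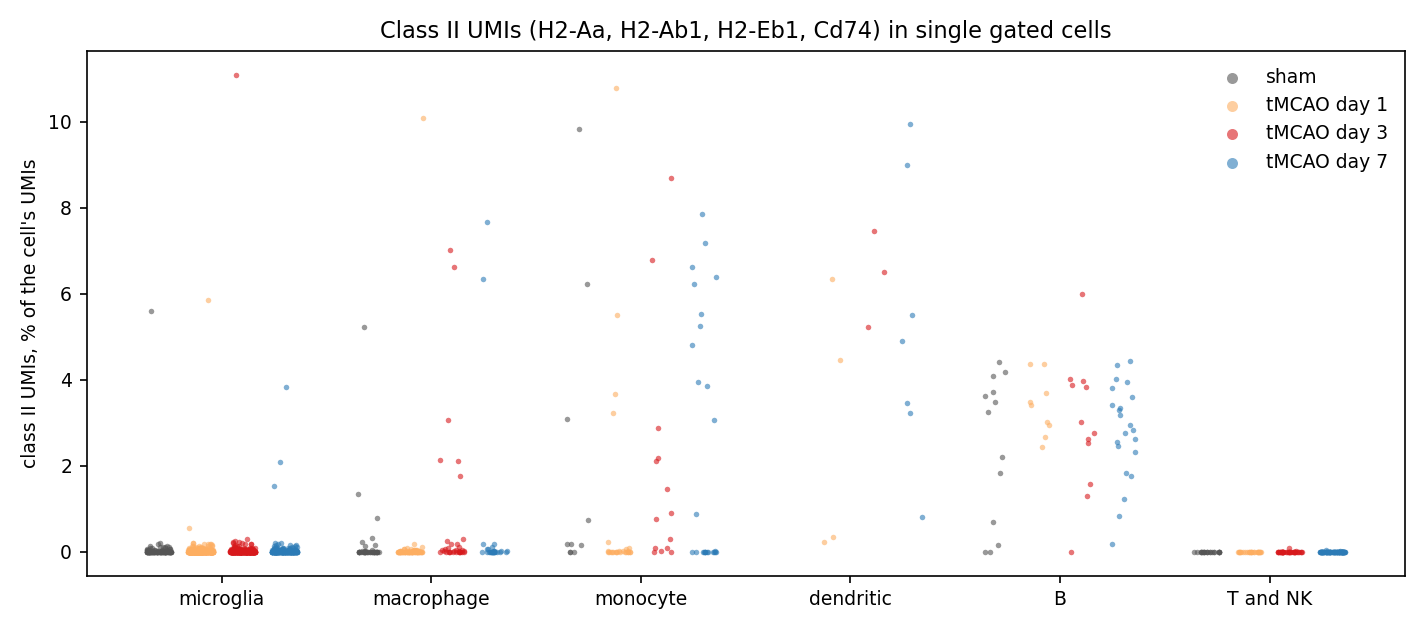
Class II UMIs (H2-Aa, H2-Ab1, H2-Eb1 and Cd74) as a percentage of each cell's UMIs in 6 gated immune classes, 1 point per cell, coloured by library. Most microglia and macrophages lie at or near 0 with single cells above 5%, B cells spread around 3% in each library, and T and NK cells are at or near 0.

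Class II in microglia was low, and in sham and on day 3 most of its UMIs lay in 1 cell. H2-Aa had 40, 30, 59 and 61 UMIs, H2-Ab1 74, 52, 99 and 62, H2-Eb1 41, 33, 82 and 70, and Cd74 282, 424, 536 and 359. As CPM Cd74 was at 694, 214, 436 and 388 and H2-Ab1 at 182, 26.2, 80.5 and 67, so that sham was the highest library for both. However, 1 sham cell held 354 of the 437 class II UMIs and 1 day 3 cell 498 of 776, while the highest cells of days 1 and 7 held 165 of 539 and 191 of 552. The sham cell was found with 87 UMIs of the myeloid gene Lyz2, 4 macrophage markers and 5 microglial markers. The highest cells of days 1, 3 and 7 had 44, 39 and 46 Lyz2 UMIs. They had 2, 1 and 4 macrophage markers and 3, 4 and 5 microglial markers, and the day 3 cell was among the highest doublet scores. With 10 or more class II UMIs there were 1, 7, 8 and 3 microglia, and outside these cells the level was 207, 145, 153 and 159 CPM. Ciita had 0, 0, 0 and 1 UMIs in microglia.

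Counted over all cells, 7 of 8 microglial members were past the limit downward on day 1, against 24.6% of all 5913 genes, namely all those tested other than B2m. On day 3 H2-Aa, H2-Ab1 and Cd74 were (3 of 8, against 10.1%), and on day 7 H2-Ab1 and Cd74 (2 of 8, against 8.88%), while H2-D1 and B2m were past it upward that day (2 of 8, against 13.5%). H2-Aa and H2-Eb1 were under 20 CPM on day 1 and so were tested there only through sham. Their 40 and 41 sham UMIs lay in 1 cell, which leaves the day 1 count as a description. Without the cell with most class II UMIs in each of the 4 libraries, the log2 ratio of the class II chains to sham was -0.14, 0.13 and 0.92 on days 1, 3 and 7 in place of -1.99, -0.77 and -0.85. However, the day 7 cells ranked 2 and 3 held a further 141 and 76 class II UMIs. Outside all microglia with 10 or more such UMIs, days 3 and 7 were at 153 and 159 CPM, below the 207 CPM of sham. The share of microglia with a class II UMI after thinning was 17.4% (10.3% to 26.7%), 13.3% (9.99% to 17.2%), 16.5% (12.2% to 21.7%) and 11.9% (7.71% to 17.3%), with overlapping intervals (unthinned 29.4%, 30.6%, 26.7% and 33.7%, median depth 2071, 3730, 2638 and 2999 UMIs).

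Genes that load class II with peptide were read in the same classes. In phagocytes 4 of 6 tested on day 3 and 4 of 7 on day 7 were past the limit upward, against 18.3% and 22.8% of all phagocyte genes. The peptide exchange chain H2-DMa was at 170, 110, 360 and 394 CPM and H2-DMb1 at 269, 127, 429 and 400. The modulators H2-Oa (7.07, 24.2, 38.6 and 99.9 CPM) and H2-Ob (3.54, 1.51, 42.9 and 58.8 CPM) were also higher on days 3 and 7, on few UMIs. Both passed the filter only through tMCAO libraries and are part of the phagocyte counts above, which leaves those counts as descriptions. The protease Lgmn went the other way, at 966, 2051, 1004 and 452 CPM. In microglia 0 of 6 such genes were past it upward on any day, against 19.6%, 14% and 13.5% of all microglial genes on days 1, 3 and 7, and H2-DMa was at 199, 160, 209 and 199 CPM.

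A small group of endothelial cells carried class II on day 3. Over all endothelial cells Cd74 was at 5.87, 20.4, 53.8 and 9.92 CPM in sham and on days 1, 3 and 7. H2-Ab1 was at 2.66, 5.63, 21.9 and 4.76 CPM. Ciita had 1, 1, 30 and 3 UMIs, the day 3 UMIs being spread over 27 cells. Day 3 was highest for all 5 class II members. H2-Ab1 and Cd74 were past the limit upward on day 3 (4.06% of 6952 genes were), and Cd74 on day 1 (4.48% of 6877 genes were). Both were under 20 CPM in sham and so were tested only through the day on which they were high, which leaves these calls as descriptions. After thinning, 0.501%, 0.506%, 2.84% and 0.892% of endothelial cells held a class II UMI, and only the day 3 interval (2.39% to 3.34%) lay apart from the others. Unthinned the shares were 1.29%, 0.892%, 4.49% and 1.64%.

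The day 1 UMIs lay in very few endothelial cells and the day 3 UMIs in more. On day 1 4 of 6730 endothelial cells held 634 of the 704 class II UMIs, 440 of them in 1 cell. Of the 4, 2 had Ptprc, the leukocyte gene CD45, and 0 had Plvap. Pecam1 and Cldn5 were in 4 and Cdh5 and Flt1 in 3, but these genes are markers of the endothelial gate that the cells had passed. On day 3 52 cells had 10 or more class II UMIs, between 10 and 58 each, and together 1230 of 1629. Of these 52 cells 1 had Ptprc, 4 had the B cell gene Cd79a and 0 had Lyz2. The endothelial genes Pecam1, Cdh5 and Flt1 were in 48, 49 and 51 of them. As gate markers their detection was favoured by the gate and does not show what these cells are. Ciita was detected in 14 of the 52 and in 13 of the other 5580. Of the 52, 6 (11.5%) were among the 5% of cells with the highest doublet scores, against 3.96% of the other endothelial cells, and Cd79a was in 7.69% against 0.358%. Chosen by a number of UMIs, the 52 were also deeper, at a median of 4635 against 2182 UMIs, which raises the share of cells in which any gene is detected. The part of mixed cells in this group was not tested. In sham 5 and on day 7 11 endothelial cells reached 10 class II UMIs, and 0 and 5 of these had Ptprc.

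These day 3 cells differed from other endothelial cells in vessel genes, which were chosen for display after their values were seen. The tight junction gene Cldn5 was detected in 20 of the 52 (38.5%) against 98.5% of the other 5580, and the transporter Slco1a4 in 32.7% against 94%. Both are markers of the endothelial gate, so these shares were partly set by the gate in either set. Plvap, which encodes the diaphragm protein of fenestrated vessels, was detected in 40 of the 52 (76.9%) against 1.43%. Sorting all endothelial cells by Plvap, 74, 47, 91 and 117 cells had 2 or more Plvap UMIs, of which 51, 35, 67 and 97 had no Cldn5 UMI. In these cells the class II chains stood at 522 CPM in sham (140 UMIs), 20.6 on day 1 (3 UMIs), 2862 on day 3 (970 UMIs) and 272 on day 7. In the remaining endothelial cells they stood at 3.83, 41.9, 41.6 and 18.5 CPM. On day 1 634 of the 701 class II UMIs of these remaining cells lay in the 4 cells described above. On day 3 40 of the 91 Plvap cells had 10 or more class II UMIs, and 24 of the 30 endothelial Ciita UMIs were in the Plvap cells. The sort by Plvap was itself chosen after the values in the 52 cells were seen. Its day 3 class II level thus partly restates that comparison and is a description.

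Class I was higher in the Plvap cells too. The class I chains stood at 9605, 5203, 14865 and 9485 CPM there and at 5326, 3137, 6595 and 4884 CPM in the other endothelial cells. Both were lowest on day 1 and highest on day 3, but the day 1 Plvap set held 47 cells, under the limit for a CPM. Tap1 was at 123, 68.6, 605 and 120 CPM in the Plvap cells, resting on 33, 10, 205 and 46 UMIs. The median depth was 3376, 2319, 3577 and 2806 UMIs in the Plvap cells and 2854, 1841, 2173 and 1960 in the others.

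**Figure D5:**
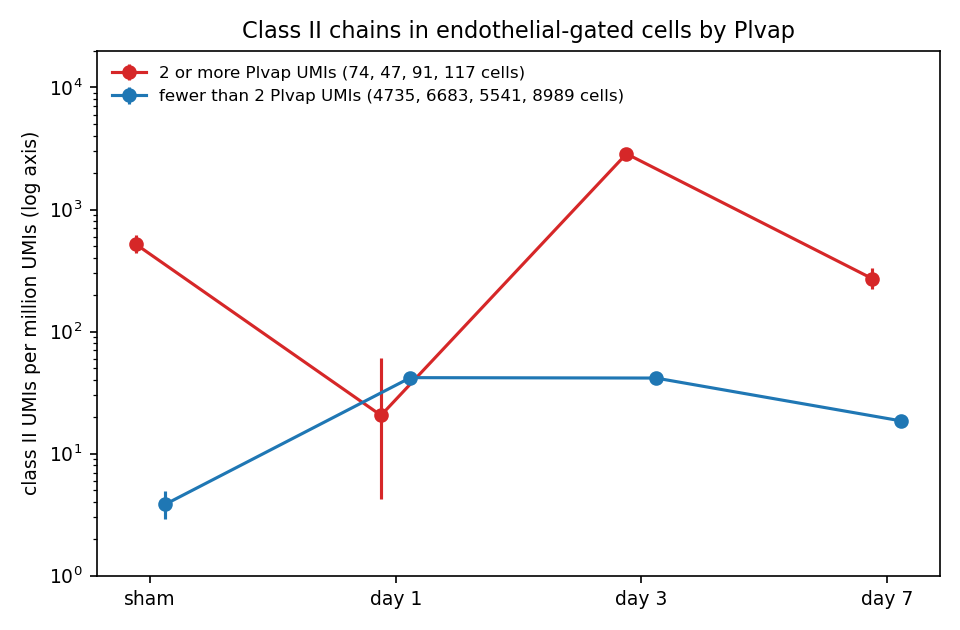
Level of the class II chains (UMIs per 1000000 UMIs, log axis) in endothelial cells with 2 or more and with fewer than 2 Plvap UMIs, in sham and on days 1, 3 and 7, points with exact 95% Poisson intervals. The Plvap cells reach 2862 CPM on day 3 against 41.6 CPM in the other endothelial cells. Their day 1 point rests on 47 cells and 3 UMIs, and most day 1 UMIs of the other endothelial cells lie in 4 cells. The sort by Plvap was chosen after its values were seen.

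In smooth muscle cells and oligodendrocytes the highest class II levels lay in single cells. Smooth muscle cells of day 1 held 573 class II UMIs, 98.4% of them in 1 cell with 3 dendritic cell markers and 3 Ptprc UMIs. Oligodendrocytes of day 7 held 555, of which 547 were in 2 cells with 92 and 53 Lyz2 UMIs, both among the highest doublet scores. Outside such cells these classes were at 1.42, 3.2, 4.96 and 4.1 CPM for smooth muscle and 1.41, 0.97, 1.88 and 1.16 CPM for oligodendrocytes. Pericytes had no cell with 10 class II UMIs and were at 22.2, 12.9, 24.1 and 15.1 CPM. In pericytes H2-Eb1 gave 11 of 18, 9 of 14, 21 of 36 and 10 of 20 class II UMIs, and H2-Aa had 0 UMIs in every library.

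Across the 37 combinations of unpooled class and library with at least 50 cells, the class I members followed each other. So did the class II chains among themselves. Monocytes, dendritic cells and B cells held fewer than 50 cells in each library and are not among these points. The class II points of smooth muscle on day 1, microglia in sham and oligodendrocytes on day 7 rest mainly on 1, 1 and 2 cells. In macrophages on day 1 and neutrophils on day 3, 1 cell held 88% and 89.9% of the class II UMIs. In microglia on day 3 and endothelial cells on day 1 it was 64.2% and 62.5%. Further points rest on few class II UMIs. With log2(CPM + 10), Pearson's r with H2-K1 was 0.944 for B2m, 0.935 for H2-D1 and 0.884 for Tap1, and 0.478 to 0.541 for the class II members. With H2-Ab1 it was 0.940 for H2-Eb1, 0.917 for H2-Aa and 0.905 for Cd74, but 0.0757 for Ciita, whose UMIs were few. Outside the lists the genes most like H2-K1 of 10157 compared were Nfatc1 (0.905), Il10rb (0.898), Lgals9 (0.879), Elf1 (0.878) and Sp110 (0.876), and those most like H2-Ab1 were Adgre1 (0.864), Trem2 (0.853), Abcc3 (0.852), Fcgr1 (0.847) and P2ry6 (0.846). Points of 1 library share its depth and free RNA, and the values are descriptions.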

How the data were processed

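The deposited matrices hold UMI counts per gene and cell, made by the authors with Cell Ranger. The submitters' processing notes name Cell Ranger 3.0.1, Seurat 4.1.2 and the build GRCh38, whereas the deposited file headers name Cell Ranger 4.0.0 and the gene identifiers are those of mouse. Following the study's methods, barcodes were dropped below 200 or above 3000 genes or above 10% mitochondrial UMIs, which left fewer cells in every library than the study states. A cell took the class whose markers it detected in the largest share, with at least 2 markers and 1.5 times the share of any other family of classes. UMIs were summed per class and library and divided by the class total (CPM). Sums carry exact Poisson, ratios exact conditional and shares exact Clopper-Pearson 95% intervals. A gene was tested against the 1.5-fold limit, with 10 CPM added, if it had at least 20 CPM in sham or on that day, and a ratio needed more than 3 UMIs in 1 of the libraries. Cells of a class that hold 10 or more class II UMIs were counted as high. Endothelial zones needed 2 zone markers and more than any other zone. Named were the 9 members, at most 4 genes per pathway list by the size of their log2 ratio, and the 5 genes most correlated with H2-K1 and with H2-Ab1. Genes of the Plvap comparison, and Lgmn, Irf1, Cd274, H2-DMa and H2-DMb1 where the rule did not give them, were added after their values were seen. One gene of the pathway lists is not reported here. The members and lists were chosen with earlier results of these data known. Python 3.11.15, scipy 1.17.1 and scanpy 1.11.5 were used, and the fold limit and the intervals were tested on simulated data, where unchanged genes passed the limit by counting noise in phagocytes and, less often, in microglia, but not in endothelial cells or oligodendrocytes. Alternatives were other filters, gates, clusters, scalings and thinning.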

Additional observations from a re-analysis of the deposited data

How the results depend on the processing

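All values here are log2 ratios to sham on days 1, 3 and 7. With all cells they were -0.78, 0.33 and -0.12 for the class I chains in endothelial cells, -0.75, 0.41 and 0.64 for class I in microglia, -1.99, -0.77 and -0.85 for class II in microglia, and -0.84, 1.12 and 1.52 for class II in phagocytes. The summed class I chains kept their direction under every alternative run in both classes. Singly, endothelial H2-K1 and B2m on day 7, at 0.05 and 0.01, turned to -0.08 and -0.12 with median-of-ratios scaling and to -0.03 and -0.07 thinned. For class I in endothelial cells the values outside the counting interval were -0.79 and 0.31 on days 1 and 3 with at most 5% mitochondrial UMIs, -0.91 and 0.28 with up to 5000 genes, -0.75 on day 1 with clusters, -0.71 and -0.25 on days 1 and 7 with median-of-ratios scaling, and -0.75 and -0.14 on those days with cells thinned to 1000 UMIs. For class I in microglia they were -0.97 and 0.32 on days 1 and 3 with up to 5000 genes, -0.47 on day 1 with median-of-ratios scaling, and -0.64 and 0.60 on days 1 and 3 thinned.

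Class II in microglia reversed on days 3 and 7, to 0.11 and 0.31 with clusters in place of the gate and to 0.13 and 0.92 without the cell with most class II UMIs, and was -0.30 and -0.14 on day 1 in these settings. The other values were -4.15, -2.62 and -2.46 with up to 5000 genes, -1.71 on day 1 with median-of-ratios scaling, -1.28 and -0.30 on days 1 and 3 thinned, -2.27 and -1.11 on days 3 and 7 without the top 5% of doublet scores, and -1.06 on day 7 with the oligodendrocyte level subtracted. Among single genes in microglia, H2-Aa on day 3 reversed to 0.65 thinned, H2-Ab1 on day 7 to 0.46 with clusters and 0.52 without its top cell, and Cd74 to 0.14 and 0.21 on day 3 and to 0.0105 and 0.61 on day 7 in the same settings. Except where the top cell was left out, the cause was not tested. The summed day 7 value of 0.92 without that cell still rested largely on single cells. Outside all microglia with 10 or more class II UMIs, days 3 and 7 were below sham.

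Class II in phagocytes kept its direction, but not always its size. On day 3 it was under the 1.5-fold limit without the top 5% of doublet scores. On day 1 it was under that limit thinned (-0.40) and without the top cell (-0.15). It was -0.99 and 0.93 on days 1 and 3 with at most 5% mitochondrial UMIs, -0.74 and 1.96 on days 1 and 7 with up to 5000 genes, -1.32, 1.97 and 2.19 with 1 marker more in the gate, 0.89 and 1.12 on days 3 and 7 with clusters, -0.93 and 0.27 on days 1 and 3 without the top 5% of doublet scores, -0.75 on day 1 with median-of-ratios scaling, -0.40, 1.21 and 1.63 thinned, -0.15, 1.78 and 2.33 without the top cell, and -1.05, 1.38 and 1.84 with the macrophage gate alone. The last, the doublet and the top cell settings were chosen after seeing the data. Scrublet's own threshold marked 0.0142% to 0.225% of cells in 3 libraries and 4.28% on day 1, and was not used. No paired analysis was possible because each group has 1 library, and intervals cover counting error only.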
